A study of Mus musculus with 38 samples.

Results

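Injured gastrocnemius muscle of aged mice that had received NAM/PN was compared with injured gastrocnemius of young mice that had received vehicle, to describe what still set treated aged muscle apart from young regenerating muscle. The 9 libraries were taken by their titles from the 38 libraries of the series, 4 from treated old mice and 5 from young control mice, and each came from a different mouse. All 9 male mice had been injected with cardiotoxin, a snake venom toxin that kills myofibers, in the muscle of 1 leg and were sampled 5 days after injury (dpi). NAM/PN is nicotinamide at 200 mg/kg per day together with pyridoxine at 4 mg/kg per day, given by oral gavage in 1% sodium carboxymethyl cellulose, and young mice received the carboxymethyl cellulose alone. The deposited labels differ on whether gavage began before the injury or on the day of injury. Because the groups differ in both age and treatment, an effect of age and an effect of NAM/PN cannot be told apart here. Injured muscle of 3 aged mice on vehicle, and the uninjured contralateral muscle of 6 aged NAM/PN and 6 young vehicle mice, are given beside the comparison. RNA was measured in whole muscle, where fewer cells of a type and less RNA per cell cannot be told apart.

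Skeletal muscle regenerates through muscle stem cells (MuSCs), which are marked by the transcription factor Pax7, divide as Myod1-expressing progenitors, differentiate under myogenin (Myog) and fuse into new myofibers that first carry embryonic and neonatal myosins. At 5 dpi macrophages are clearing debris, fibro-adipogenic progenitors are laying down collagen, and young fibers are forming. NAM is a precursor of NAD, made through the enzyme Nampt, and PN is a form of vitamin B6 that pyridoxal kinase (Pdxk) phosphorylates. Tendon is made by cells that express tenomodulin and small matrix proteoglycans. Myofibers attach to it at the myotendinous junction, and tendon cells are collected with the ends of a dissected muscle.

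The libraries carried the genes of regenerating muscle. Levels are CPM, a library's reads of a gene scaled to a common library size with TMM factors. Skeletal actin (Acta1) measured 12006 ± 1763 CPM (SD, n = 4) in aged NAM/PN and 14106 ± 3028 CPM (SD, n = 5) in young vehicle injured muscle. Embryonic myosin (Myh3) measured 1398 ± 258 CPM (SD, n = 4) and 796 ± 255 CPM (SD, n = 5), against 44.8 ± 49.5 CPM (SD, n = 6) and 7.04 ± 2.37 CPM (SD, n = 6) in the contralateral muscle of the same 2 groups. Total counts ran from 4132508 to 4689160 in the aged and from 4032414 to 6742277 in the young libraries (exact permutation p = 0.317, where the test counts both tails and the smallest possible value is 0.0159). Genes detected numbered 14963 ± 299 (SD, n = 4) and 15015 ± 327 (SD, n = 5) (exact permutation p = 0.873), and mitochondrial transcripts took 9.51% ± 2.24 (SD, n = 4) and 9.61% ± 2.47 (SD, n = 5) of counts (exact permutation p = 0.937). The adjusted p over these 3 measures was 0.937 for each.

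Across all genes, the 2 groups lay about as far apart as mice of the same group did. The root mean square log2 distance between an aged NAM/PN and a young vehicle library averaged 0.628 over 20 pairs, compared with 0.624 within aged NAM/PN and 0.645 within young vehicle muscle. Aged vehicle libraries averaged 0.625 from young vehicle and 0.634 from aged NAM/PN libraries. The distance therefore did not set treated apart from untreated aged muscle, and no likeness to young muscle can be read from it. A pair of libraries stood apart on the first principal component, aged NAM/PN replicate 4 at -54.9 and young vehicle replicate 4 at -54.2, whereas the other 13 injured libraries of the series lay between -11.8 and 28.6. The tendon result below is also given without these 2 libraries.

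**Figure D1:**
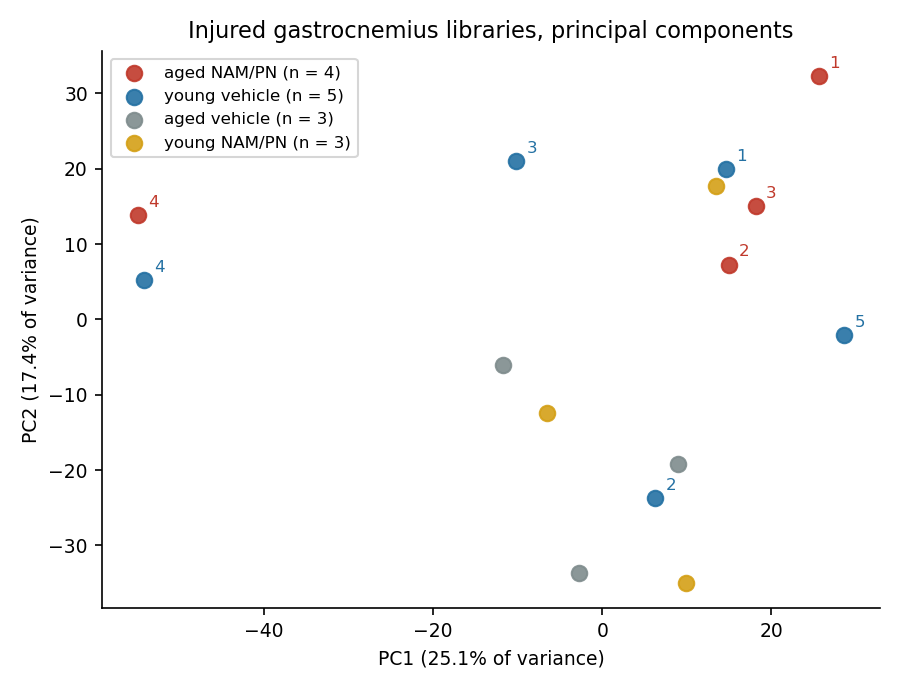
Scores of the 15 injured gastrocnemius libraries on the first (x axis) and second (y axis) principal components of log2 CPM, which hold 25.1% and 17.4% of the variance. Points are libraries, coloured by group, and numbers give the replicate of the 2 groups compared. The aged NAM/PN and young vehicle points are mixed, and replicate 4 of each lies near -54 on the first component.

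No gene passed the test. Of 12610 genes tested with edgeR's quasi-likelihood test, 0 (0%) had an adjusted p under 0.05, and the smallest adjusted p was 1. With no adjustment, 321 genes had a p under 0.05, of which 87 were higher in aged NAM/PN muscle (0.69% of genes tested) and 234 lower (1.86%). Together they made up 2.55% of genes, fewer than a threshold of 0.05 would give if no gene differed. In 101 genes (0.801%) all 4 aged values lay above all 5 young values, and in 75 (0.595%) they lay below. DESeq2 called 0 genes higher and 3 lower, and voom with quality weights called 1 higher and 4 lower, and 375 and 1101 genes, in that order, were past 0.05 before adjustment. A missing call does not show that levels were equal, and the precision reached is given by the intervals: for 8637 genes (68.5%) the 95% interval of the log2 fold change lay between -1 and 1, so that a doubling or halving fell outside it, and the median standard error was 0.29. The median log2 fold change was -0.02, with 47.2% of genes above 0 and 52.8% below.

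**Figure D2:**
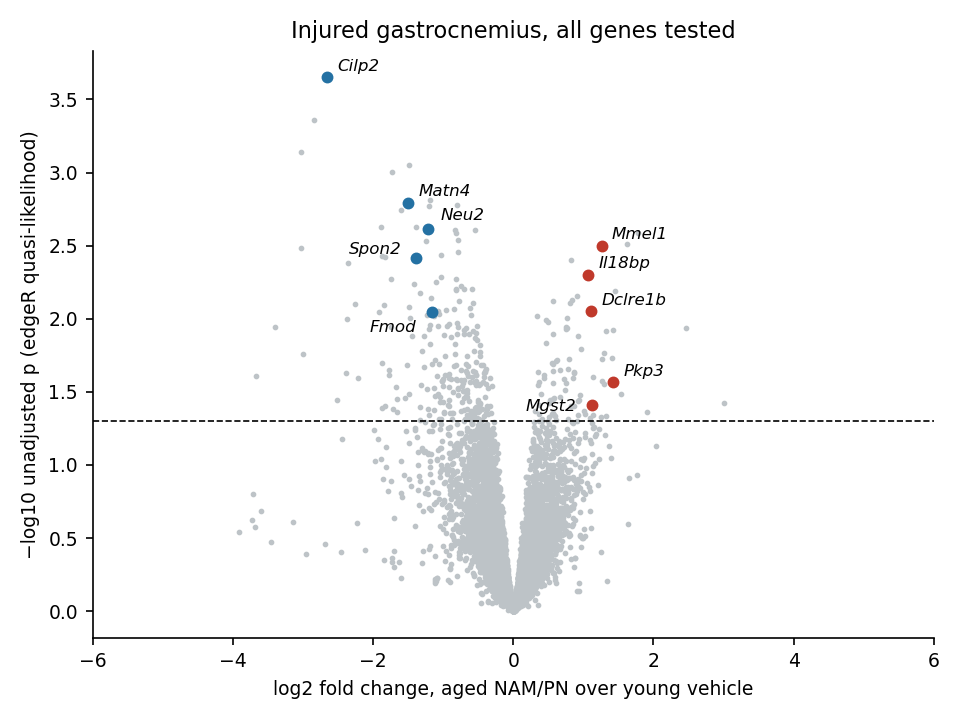
Log2 fold change of aged NAM/PN over young vehicle injured muscle (x axis) against −log10 of the unadjusted edgeR p (y axis) for the genes tested. The dashed line marks an unadjusted p of 0.05, and the labelled genes are the 5 in each direction with the smallest p among genes without overlap and with a log2 fold change of 1 or more in size. More points lie above the line on the lower side (234) than on the higher side (87), and Cilp2 stands highest.

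The gene with the smallest p was Cilp2, an extracellular matrix protein of cartilage and tendon (ENSMUSG00000044006, GRCm38 chromosome 8, 69880369 to 69887687). It measured 7.65, 13.8, 8.76 and 26.3 CPM in the 4 aged NAM/PN mice and 71.2, 180.1, 52.6, 83.5 and 55.97 CPM in the 5 young vehicle mice. Every treated aged mouse was therefore below every young mouse, with 26.3 CPM in aged replicate 4 nearest to 52.6 CPM in young replicate 3. The log2 fold change was -2.65 (SE 0.65, 95% interval -3.97 to -1.34, unadjusted p = 0.000224, adjusted p = 1 by edgeR). DESeq2 and voom gave Cilp2 an adjusted p of 0.0357 and 0.0141. In the 3 aged vehicle mice it measured 11.8 to 19.3 CPM, a log2 fold change of -2.61 (SE 0.72) from the same young mice.

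Cilp2 did not differ in this way in uninjured muscle. Its contralateral level was 36.1 ± 30.0 CPM (SD, n = 6) in aged NAM/PN and 36.7 ± 14.5 CPM (SD, n = 6) in young vehicle mice, a log2 fold change of -0.02 (SE 0.52). Within a mouse, the injured leg held less Cilp2 than the contralateral leg in 4 of 4 aged NAM/PN mice, by -1.84 to -0.92 on the log2 scale, and more in 5 of 5 young vehicle mice, by 0.23 to 2.63. The difference between the 2 legs' effects was -2.63 (SE 0.81, unadjusted p = 0.00259), and its edgeR adjusted p of 1 did not pass. Both leg contrasts reuse the injured values by which Cilp2 was picked. They are not independent of its log2 fold change in injured muscle.

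Cilp2 belongs to a list of tendon genes. This list was chosen with earlier results of these data known and is not independent support for Cilp2. The list holds 10 genes, of which 9 could be tested, and all 9 had a negative log2 fold change (52.8% of all genes did) with a median of -1.19 against -0.02 over all genes. An unadjusted p under 0.05 was reached by 6 of the 9 (1.86% of all genes reached it on the lower side) and an adjusted p under 0.05 by 0. Chondroadherin (Chad), a leucine-rich matrix protein, measured 3.56 to 11.8 CPM in aged NAM/PN and 10.5 to 73.8 CPM in young vehicle muscle (log2 fold change -2.36, SE 0.77). Keratocan (Kera), a keratan sulfate proteoglycan, had a log2 fold change of -1.84 (SE 0.66) at low counts. In both genes the ranges overlapped through 1 aged mouse, replicate 4 for Chad and replicate 1 for Kera.

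Tenomodulin (Tnmd), the membrane glycoprotein that marks mature tendon cells, measured 8.31, 7.08, 6.70 and 12.3 CPM in aged NAM/PN muscle. In young vehicle muscle it measured 36.7, 18.1, 13.6, 7.41 and 43.8 CPM, a log2 fold change of -1.48 (SE 0.53). The value of 7.41 CPM belongs to young vehicle replicate 4, and the other 4 young mice lay above all aged ones. Fibromodulin (Fmod), a proteoglycan that binds collagen fibrils, measured 44.1 to 76.01 CPM in the aged and 91.95 to 230 CPM in the young mice without overlap (log2 fold change -1.15, SE 0.42). Col22a1, the collagen of the myotendinous junction, had a log2 fold change of -1.19 (SE 0.46). Thrombospondin 4 (Thbs4), cartilage oligomeric matrix protein (Comp) and scleraxis (Scx), the transcription factor of tendon progenitors, had log2 fold changes of -0.56, -0.50 and -0.25 with standard errors of 0.50 to 0.66, within the spread between mice. The 6 genes with an unadjusted p under 0.05 encode matrix or membrane proteins of tendon or, for Col22a1, of the myotendinous junction.

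A score per library, the mean of log2(CPM + 1) over the 9 tendon genes, was 3.92, 3.98, 3.56 and 3.93 in the 4 aged NAM/PN libraries and 5.04, 5.47, 4.43, 4.71 and 5.40 in the 5 young vehicle libraries. This was the 1 list of 33 in which the 2 groups did not overlap. The score includes Cilp2 and Fmod, which were named because they did not overlap in these same libraries. Aged vehicle libraries scored 3.68, 3.10 and 4.05, and the 3 young mice on NAM/PN scored 5.32, 3.86 and 4.02. The young NAM/PN mice at 3.86 and 4.02 lay below every young vehicle mouse, and the value of 3.86 lay within the range of treated aged mice. A low tendon score was therefore not particular to aged mice. The per-mouse difference between injured and contralateral leg ran from -0.48 to 0.59 in aged NAM/PN and from 1.07 to 2.03 in young vehicle mice. In contralateral muscle the list's median log2 fold change was 0.10, with 6 genes above and 3 below 0, and the difference between legs had a median of -1.26, with 9 of 9 genes below 0 and 5 past an unadjusted 0.05 (1.7% of all genes). With the mouse as a block in a paired fit that median was -1.56. Neither replicate 4 library nor any other decided the list: without both, its median was -1.37 and 6 genes passed an unadjusted 0.05, and leaving out each library in turn gave -1.47 to -1.03. How much tendon was dissected with each muscle is not given in the sources used here, and its part in the result was not tested.

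**Figure D3:**
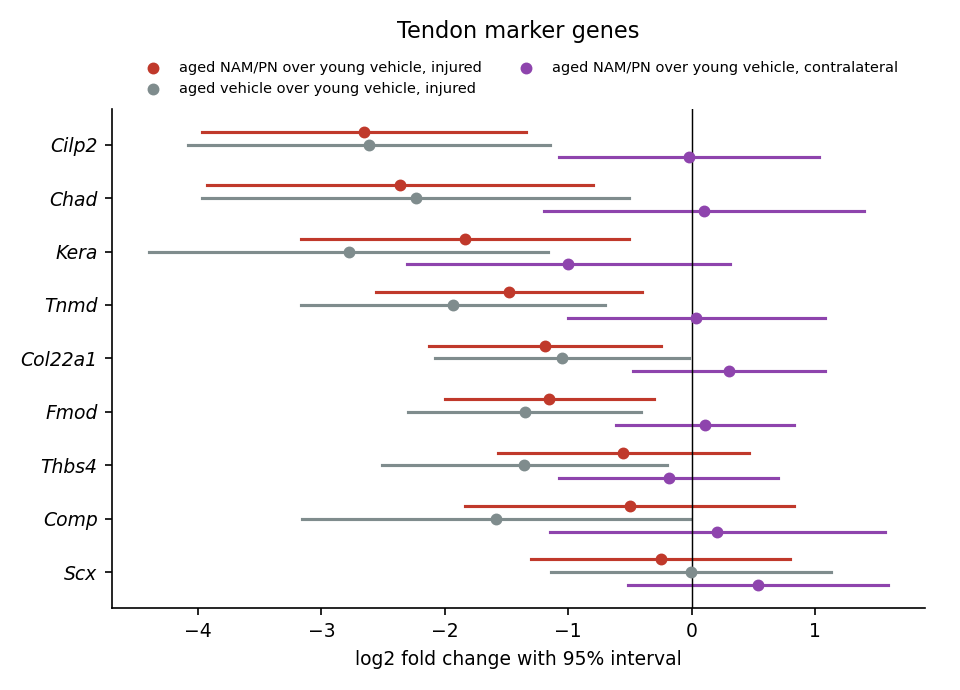
Log2 fold change with its 95% interval (x axis) of the 9 tested tendon genes (y axis), for aged NAM/PN over young vehicle in injured muscle (red), aged vehicle over young vehicle in injured muscle (grey) and aged NAM/PN over young vehicle in contralateral muscle (purple). Red and grey share the 5 young vehicle libraries. In injured muscle the intervals of 6 red points exclude 0, and in contralateral muscle the interval of every gene includes 0.

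Further matrix genes were among the 5 lower genes with the smallest p that had no overlap and a log2 fold change of 1 or more in size. Matrilin 4 (Matn4), an adaptor protein of matrix filaments, measured 4.35, 4.15, 0.684 and 5.10 CPM in aged NAM/PN and 6.50 to 18.4 CPM in young vehicle mice (log2 fold change -1.50, SE 0.44, unadjusted p = 0.00161), and 1.67 to 3.05 CPM in aged vehicle mice. Spondin 2 (Spon2), a secreted matrix protein, measured 1.45 to 4.78 CPM and 5.90 to 9.22 CPM (log2 fold change -1.39, SE 0.45). Voom gave both an adjusted p under 0.05, at 0.0216 and 0.0141, and edgeR an adjusted p of 1. Neuraminidase 2 (Neu2), a cytosolic sialidase of muscle, measured 1.06 to 1.75 CPM in aged NAM/PN and 2.40 to 4.87 CPM in young vehicle mice, a log2 fold change of -1.22 (SE 0.37). Unlike the matrix genes, Neu2 was not low in aged vehicle mice, which measured 2.80 to 7.17 CPM. Crispld2, a secreted protein that was picked because voom called it, measured 28.9 to 58.3 CPM and 56.8 to 84.04 CPM, and the ranges overlapped.

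The 5 higher genes chosen in the same way had log2 fold changes of 1.07 to 1.43. Mmel1, a membrane metalloprotease, measured 11.3, 6.92, 6.43 and 14.8 CPM in aged NAM/PN mice and 2.28 to 5.96 CPM in young vehicle mice (log2 fold change 1.26, SE 0.40, unadjusted p = 0.00316). Il18bp, which binds and neutralizes interleukin 18, measured 14.5, 8.61, 10.7 and 19.1 CPM and 4.42 to 7.90 CPM (log2 fold change 1.07, SE 0.36). Dclre1b, a nuclease that protects telomere ends, Pkp3, a desmosomal plaque protein, and Mgst2, a microsomal glutathione transferase, had log2 fold changes of 1.11, 1.43 and 1.12 with standard errors of 0.40, 0.62 and 0.53, at means of 1.93 to 2.57 CPM in the aged mice. In aged vehicle mice the log2 fold changes of these 5 genes from the same young mice were 0.84, 0.88, 0.58, 1.52 and 0.62. The remaining calls of the other tools were Dbh, dopamine beta-hydroxylase, which voom called higher on 15 to 19 reads in each aged and 3 to 17 reads in each young library, and the liver genes Serpina3k and Mup3, which DESeq2 called lower. Serpina3k and Mup3 had 0 reads in the 4 aged libraries and in at least 3 of the 5 young ones, with at most 13 in any, so that those 2 calls rest on few reads.

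Adipocyte markers had the lowest median of the 33 lists, -1.33, with 12 of 13 tested genes below 0 (52.8% of all genes were). An unadjusted p under 0.05 was reached by 1 (1.86% of all genes reached it on the lower side). In a fit of only the libraries compared, 7 genes of the list reached it on the lower side and 0 on the higher. Adiponectin (Adipoq), the main adipocyte hormone, measured 3.82, 5.38, 3.97 and 5.58 CPM in aged NAM/PN muscle and 16.4, 19.9, 11.3, 4.67 and 7.80 CPM in young vehicle muscle (log2 fold change -1.36, SE 0.80). Complement factor D (Cfd), also called adipsin, measured 13.6 to 35.9 CPM and 43.3 to 109.9 CPM without overlap (log2 fold change -1.33, SE 0.86). Over all genes, 0.595% had no overlap on the lower side. Perilipin 4 (Plin4), a lipid droplet protein of fat and muscle, was the gene of this list with an unadjusted p under 0.05 (0.000889, log2 fold change -1.49, SE 0.41). Its values of 6.20 to 15.2 CPM overlapped those of the young mice, 8.44 to 73.1 CPM. Young vehicle replicate 2 had the highest adipocyte score, 3.69, and also the highest tendon score. Without that mouse the adipocyte median over the 12 genes then tested was -0.89, whereas the tendon median was -1.17. The contralateral median of the list was 0.42, and the median of the difference between legs was -1.62, or -0.96 over the 11 genes tested with the mouse as a block.

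Genes induced by glucocorticoids, the stress hormones that drive muscle protein breakdown, formed the next list below 0. Of 18 genes 17 had a negative log2 fold change (52.8% of all genes did), with a median of -0.48. An unadjusted p under 0.05 was reached by 3 (1.86% of all genes reached it on the lower side). Atrogin 1 (Fbxo32), the ubiquitin ligase of muscle atrophy, measured 39.95, 88.9, 54.2 and 61.4 CPM in aged NAM/PN and 62.2, 260.2, 115.5, 158.1 and 105.8 CPM in young vehicle mice, a log2 fold change of -1.20 (SE 0.35, unadjusted p = 0.00171). Klf9 and Zbtb16, transcription factors that the glucocorticoid receptor switches on, had log2 fold changes of -0.68 (SE 0.31) and -1.06 (SE 0.44). Fkbp5, a chaperone that is a sensitive target of the receptor, measured 5.42 to 10.8 CPM against 5.32 to 24.2 CPM, within the spread between mice. Here too young vehicle replicate 2 was the highest library for Fbxo32, Klf9, Zbtb16 and Fkbp5, and without it the median was -0.31 with 1 gene at an unadjusted p under 0.05. The median was -0.09 in aged vehicle mice, and -0.03 in the contralateral muscle of aged NAM/PN mice.

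Genes of mature fast myofibers were mostly below young levels, with 28 of 30 below 0 (52.8% of all genes were) and a median of -0.37. An unadjusted p under 0.05 was reached by 4 (1.86% of all genes reached it on the lower side). Fast myosin IIB (Myh4) measured 3285, 5912, 5570 and 13159 CPM in aged NAM/PN mice and 5572 to 18955 CPM in young vehicle mice (log2 fold change -0.61, SE 0.31). Parvalbumin (Pvalb), the calcium buffer of fast fibers, measured 228 to 3400 CPM and 1520 to 5609 CPM (log2 fold change -0.88, SE 0.42). The ranges of both genes overlapped widely. Single libraries moved this list: its median was -0.20 without aged NAM/PN replicate 1, -0.21 with 0 genes past an unadjusted 0.05 without young vehicle replicate 2, and -0.60 with 16 such genes without aged NAM/PN replicate 4. Aged vehicle mice lay on the other side of the same young mice, with a median of 0.52 and 28 of 30 genes above 0.

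**Figure D4:**
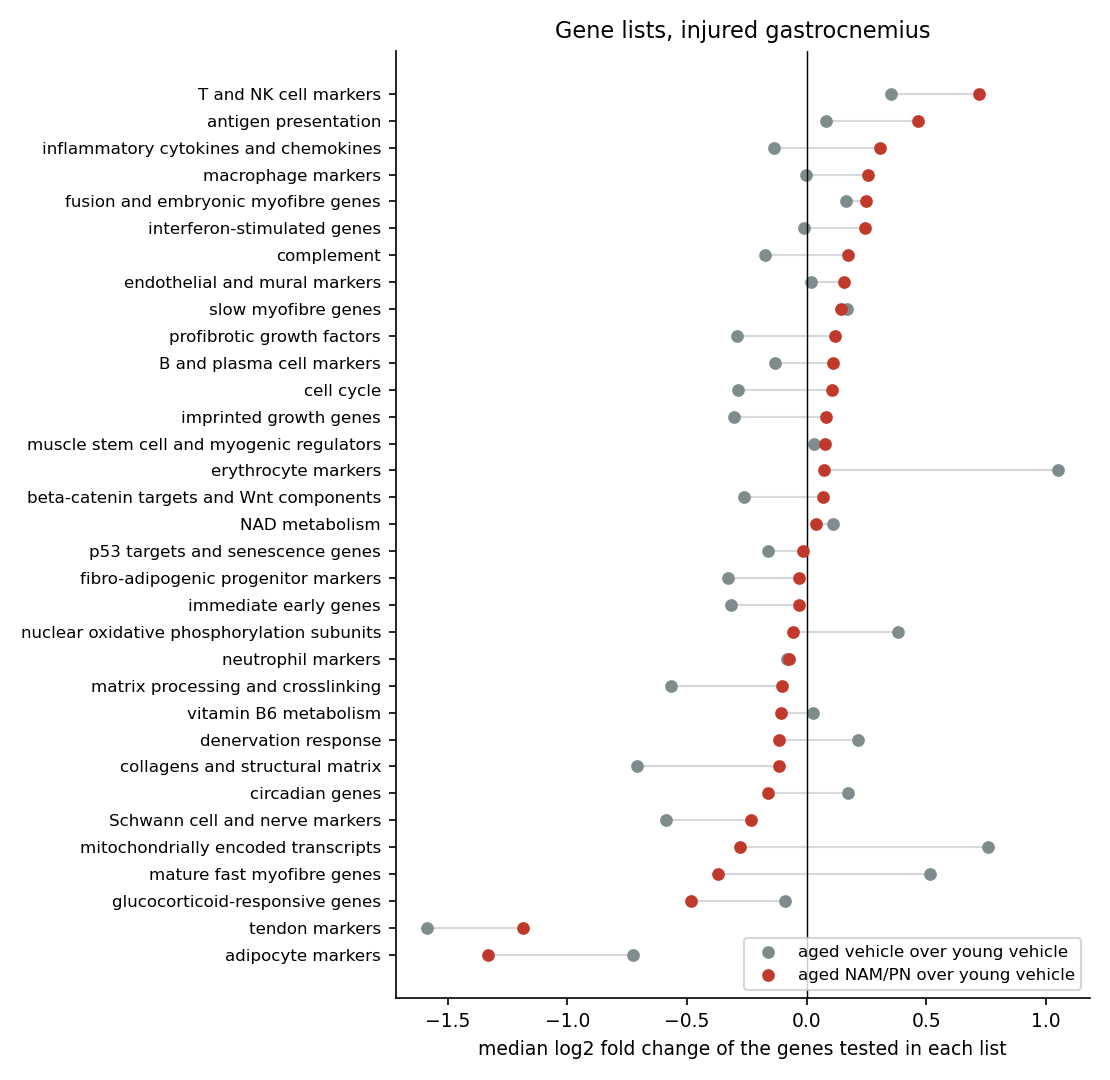
Median log2 fold change (x axis) of the tested genes of each of 33 gene lists (y axis) in injured muscle, for aged NAM/PN over young vehicle (red) and aged vehicle over young vehicle (grey). Both share the 5 young vehicle libraries. Tendon and adipocyte markers lie farthest below 0 in red, and T and NK cell markers lie farthest above 0, at 0.72.

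Further lists in which aged vehicle muscle lay far from young muscle are set beside the treated values. Choosing lists by that distance in itself favors treated medians nearer 0, so no return to young levels can be read from them. The tendon list, given above, was low in both aged groups, with mean scores of 3.61 on vehicle and 3.85 on NAM/PN against 5.01 in young vehicle mice. Mature fast myofiber genes, also given above, lay on opposite sides of young levels in the 2 aged groups. The 2 comparisons share the young vehicle libraries, and at an unadjusted p under 0.05 aged vehicle mice had 3.69% of genes higher and 2.62% lower than these. Among collagens and structural matrix genes, 38 of 50 were below 0 in aged NAM/PN muscle with a median of -0.12, and 50 of 50 in aged vehicle muscle with a median of -0.71. The treated median turned to 0.02, with 28 of 50 genes above 0, without young vehicle replicate 1, and was -0.33 without the 2 libraries that stood apart. Against the 2 young mice whose descriptions are written as those of the aged mice it was -0.0061, with 23 genes above and 27 below 0. Collagen type I (Col1a1) measured 3553, 2411, 2796 and 5474 CPM in aged NAM/PN and 2864 to 6637 CPM in young vehicle mice, a log2 fold change of -0.23 (SE 0.54), and 1426 to 1828 CPM in aged vehicle mice. Fibronectin (Fn1), the early matrix of wounds, measured 341 to 425 CPM and 274 to 676 CPM in the same 2 groups (log2 fold change -0.13, SE 0.39). For collagen type III (Col3a1) the log2 fold change was -0.28 (SE 0.47). Treated aged and young mice thus overlapped in each of these genes.

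Nuclear subunits of oxidative phosphorylation had 25 genes above and 53 below 0 in aged NAM/PN muscle with a median of -0.06, and 73 above and 5 below with a median of 0.38 in aged vehicle muscle. For the 9 mitochondrially encoded transcripts tested the medians were -0.28 and 0.76, and for cell cycle genes 0.11 and -0.29. Matrix processing and crosslinking enzymes had medians of -0.10 and -0.57, and erythrocyte markers 0.07 and 1.05. Of these treated medians several turned in sign without 1 library, to 0.0014 for nuclear subunits and -0.012 for cell cycle genes without young vehicle replicate 2, to 0.0096 for matrix processing without young vehicle replicate 1, and to -0.17 and -0.12 for erythrocyte markers without aged NAM/PN or young vehicle replicate 3. The mitochondrially encoded median ran from -0.40 without young vehicle replicate 1 to -0.089 without aged NAM/PN replicate 1. Whether aged NAM/PN and aged vehicle mice differ is a separate comparison, in which edgeR called 0 genes, 931 had an unadjusted p under 0.05 and the smallest adjusted p was 0.056.

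**Figure D5:**
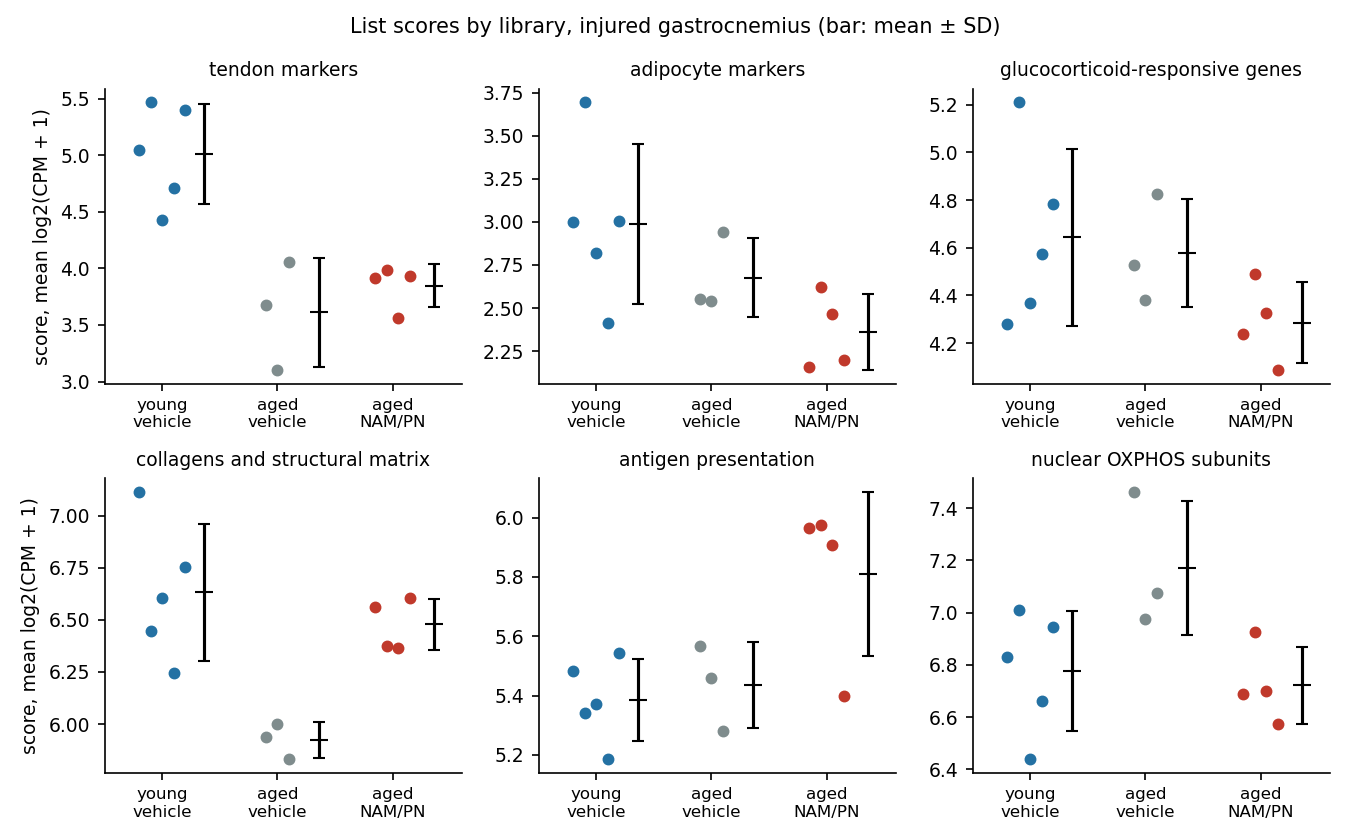
Score of 6 gene lists, the mean log2(CPM + 1) of a list's tested genes (y axis), in each injured library of young vehicle (n = 5), aged vehicle (n = 3) and aged NAM/PN mice (n = 4). Points are libraries, bars give the mean ± SD, and each panel has its own y scale, none of which starts at 0. The tendon scores of aged NAM/PN libraries (3.56 to 3.98) lie below all young vehicle scores (4.43 to 5.47), and the other 5 lists overlap between these groups.

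Regulators of MuSCs and myogenesis did not differ beyond the spread between mice. Of 17 regulators tested 11 were above 0 (47.2% of all genes were), with a median of 0.08, a range of -0.36 to 0.39 and 0 at an unadjusted p under 0.05. Pax7 measured 33.1, 19.99, 25.3 and 14.2 CPM in aged NAM/PN and 21.2, 15.5, 22.1, 6.93 and 25.6 CPM in young vehicle mice, a log2 fold change of 0.34 (SE 0.31, 95% interval -0.29 to 0.97). Myod1 measured 32.0, 29.8, 31.5 and 7.49 CPM and 16.4 to 41.4 CPM (log2 fold change 0.02, SE 0.52). For Myog the log2 fold change was -0.01 (SE 0.50) and for Myf5, the other early myogenic factor, 0.39 (SE 0.52). In each of the 4 genes aged NAM/PN replicate 4 was the lowest of its group. The intervals of Myod1, Myog and Myf5 include a doubling, so that a difference of that size was not excluded.

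Genes of myoblast fusion and embryonic myofibers had 12 of 18 above 0 and a median of 0.25. An unadjusted p under 0.05 was reached by 0. In a fit of only the libraries compared, 5 reached it on the higher and 1 on the lower side. Myomaker (Mymk), the membrane protein that fuses myoblasts, measured 291, 266, 288 and 341 CPM in aged NAM/PN and 121 to 238 CPM in young vehicle mice without overlap, but with a log2 fold change of 0.67 and a model SE of 0.76. Ncam1, an adhesion molecule of immature and denervated fibers, measured 666 to 753 CPM and 378 to 568 CPM, also without overlap (log2 fold change 0.52, SE 0.45). Of the 18 genes, 2 had no overlap on the higher side, compared with 0.801% of all genes. Myh3 and neonatal myosin (Myh8) had log2 fold changes of 0.81 (SE 0.88) and 0.18 (SE 0.91). In contralateral muscle the same list had a median of 1.14, with 16 of 18 genes above 0 and 9 at an unadjusted p under 0.05 (3.13% of all genes tested were), and the median of the difference between legs was -1.01, or -0.45 with the mouse as a block. Genes that respond to denervation had a median of -0.11 in injured and 0.57 in contralateral muscle. In both lists the median lay farther from 0 in the uninjured leg than in the injured one.

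In uninjured muscle no gene passed either, with a smallest adjusted p of 0.111 and 773 genes past 0.05 before adjustment, of which the lower ones made up 3% of genes tested. The difference of the effect between legs gave 0 calls, with 0.983% of genes at an unadjusted p under 0.05 in the higher direction. Of the 6 fits that left out 1 young vehicle contralateral library, those without replicate 1 or 3 called 0 genes. Those without replicate 2, 4, 5 or 6 called 17 to 22, of which 17, all lower, were called in all 4. All 17 were liver genes, such as Serpinc1 and Fgb.

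All 19 tested genes of antigen presentation were above 0 (47.2% of all genes were), with a median of 0.46. An unadjusted p under 0.05 was reached by 1 (0.69% of all genes reached it on the higher side). In a fit of only the libraries compared, 6 genes of the list reached it on the higher side. The contralateral median of 0.51 was close to that in injured muscle. The MHC class II chain H2-Ab1, which presents peptides to CD4+ T cells, measured 430.5, 418, 370 and 347 CPM in aged NAM/PN and 273 to 326 CPM in young vehicle mice, without overlap (log2 fold change 0.42, SE 0.31). H2-Eb1 and H2-DMb1, which serve the same pathway, also had no overlap, with log2 fold changes of 0.57 (SE 0.34) and 0.58 (SE 0.38). These members were picked after their values were seen, and 0.801% of all genes had no overlap on the higher side. By score the list overlapped, because aged NAM/PN replicate 4 had 5.40 and the other 3 aged libraries 5.91 to 5.97, against 5.19 to 5.54 in young mice. For aged vehicle mice the median was 0.08.

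Among macrophage markers 22 of 24 were above 0 (47.2% of all genes were), with a median of 0.26 and 0 at an unadjusted p under 0.05. Adgre1, which encodes the F4/80 antigen, and Trem2, a lipid receptor of phagocytic macrophages, had log2 fold changes of 0.05 (SE 0.57) and 0.27 (SE 0.56). Apolipoprotein E (Apoe), secreted by macrophages, measured 4339 to 4875 CPM in aged NAM/PN and 2431 to 3838 CPM in young vehicle mice without overlap (log2 fold change 0.53, SE 0.44). Over all genes, 0.801% had no overlap on the higher side. In 28 of 30 interferon-stimulated genes the value was above 0 (47.2% of all genes were), with a median of 0.24. Irf7, the regulator that amplifies the interferon response, measured 31.3 to 40.6 CPM against 11.4 to 24.9 CPM. T and NK cell markers had a median of 0.72 over the 8 of 23 that could be tested, and the cytotoxic granule gene Nkg7 measured 1.37 to 5.90 CPM against 0.761 to 1.88 CPM (log2 fold change 1.45, SE 0.50). Cd8a, the co-receptor of cytotoxic T cells, and Ighm, the IgM heavy chain, did not pass the filter on low counts. Inflammatory cytokines had a median of 0.31 and neutrophil markers of -0.07. Restricted to the 2 young mice whose sample descriptions are written as those of the aged mice, the interferon median was 0.68, the T and NK cell median 0.27 and the cytokine median 0.06.

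Of 24 genes of NAD metabolism tested, 13 were above and 11 below 0, with a median of 0.04. Nmrk2, the muscle kinase that makes nicotinamide mononucleotide from nicotinamide riboside, measured 13.8, 28.8, 24.5 and 31.9 CPM in aged NAM/PN mice and 37.96, 57.1, 21.6, 102.5 and 71.2 CPM in young vehicle mice, a log2 fold change of -1.23 (SE 0.45, unadjusted p = 0.00949). All but 1 young mouse were above the aged ones. Its level in aged vehicle mice was 39.8 to 101 CPM, and its contralateral log2 fold change was -0.88 (SE 0.37). Nampt, which converts NAM to nicotinamide mononucleotide, and Nnmt, which methylates NAM, had log2 fold changes of -0.10 (SE 0.27) and -0.18 (SE 0.45). Pdxk, which phosphorylates PN, had 0.09 (SE 0.22), with a 95% interval of -0.36 to 0.54 that excludes a doubling or halving.

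Csnk1a1, which encodes casein kinase 1α, the kinase that marks β-catenin for destruction, had a log2 fold change of 0.04 (SE 0.14), and Axin2, a target of β-catenin, 0.34 (SE 0.46). Of 21 β-catenin targets and Wnt components 13 were above 0, with a median of 0.07 and 0 at an unadjusted p under 0.05. Cdkn1a, the p53 target that halts the cell cycle, measured 409 to 676 CPM in aged NAM/PN and 356 to 653 CPM in young vehicle mice, and the log2 fold change of the proliferation marker Mki67 was -0.21 (SE 0.55). Schwann cell and nerve markers had a list median of -0.23, with 4 of 13 genes above and 9 below 0, and a median of -0.061 without young vehicle replicate 2. The remaining lists had medians between -0.16 and 0.17, among them circadian genes, immediate early genes, endothelial markers, complement, slow myofiber genes, imprinted genes, profibrotic growth factors, p53 targets, vitamin B6 metabolism, B and plasma cell markers and fibro-adipogenic progenitor markers.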

How the data were processed

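The authors extracted RNA from gastrocnemius, prepared QuantSeq 3′ mRNA libraries, aligned reads to GRCm38 with STAR, counted them per gene with HTSeq 2.16.2 and deposited raw counts for 27554 genes in 38 libraries. Annotation release and strand setting are not given in the sources used here, so overlapping genes and paralogs are uncertain. Symbols came from GENCODE M21. No column belonged to other samples (0). Counts were fitted with edgeR 4.0.16 in R 4.3.3 (filterByExpr, TMM, glmQLFit over 38 libraries with 8 groups, glmQLFTest), and p-values were adjusted over 12610 genes (Benjamini-Hochberg). Intervals are 95%, and counting error is only part of them. limma 3.58.1 (voom) and DESeq2 1.42.0 were alternatives. Code was tested on simulated data. Scores are mean log2(CPM + 1).

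The naming rule took a set of 30 genes (28 tested, of which 1 is not reported here) and, as none passed, 5 genes per direction with the smallest unadjusted p among those without overlap, whose log2 fold change reached 1 in size and whose mean reached 1 CPM. Other list members were picked after their values were seen. Members and the 33 lists were chosen with earlier results of these data known. Lists were described by counts and medians, without a test. Titles and mouse names show that replicates are separate mice. Within groups, chi-square per degree of freedom was 5.98 or more in 16 pairs, so no library was counted as a duplicate. The 9 mice gave both legs, which pairs their libraries: deviations of the legs correlated from -0.303 to 0.246, above 0.1 in 4 of 9. Sample descriptions come in 2 styles, shared by all aged and 2 young vehicle injured mice, with 3 young mice in the other.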

Additional observations from a re-analysis of the deposited data

Results flagged for a closer look

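In 148 sets of values (genes named by rule, list scores and library measures in each of the 2 injured groups), 13 held 1 library apart from the others by Dixon's ratio, where chance at 1 in 20 gives 7.4. In aged NAM/PN muscle there were 7, of which 5 were the lowest value in replicate 4, the library that also stood apart on the first principal component. There Myod1 was at 7.49 CPM, against 29.8 to 32.04 CPM in the other 3 mice, the score of MuSC and myogenic regulators was 4.66 (5.29 to 5.41), that of profibrotic growth factors 4.39 (4.84 to 4.87), that of antigen presentation 5.40 (5.91 to 5.97) and that of inflammatory cytokines and chemokines 3.17 (3.74 to 3.84). The β-catenin and Wnt score of replicate 1 was 3.81 (3.61 to 3.64 in the others), and the tendon score of replicate 3 was 3.56 (3.92 to 3.98).

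In young vehicle muscle 6 values lay apart. Replicate 2 was highest for Cilp2 at 180.1 CPM (52.6 to 83.5 CPM in the other 4 mice), for Fmod at 230 CPM (91.95 to 130.1 CPM) and for the complement score at 4.84 (4.46 to 4.57). Matn4 measured 18.4 CPM in replicate 1 (6.50 to 9.67 CPM), Cdkn1a 653 CPM in replicate 3 (356 to 420.1 CPM), and the score of inflammatory cytokines and chemokines was 3.71 in replicate 5 (3.33 to 3.39). Without replicate 2 both tendon genes remained below in each aged mouse, since the lowest young values were in other mice.

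For 2 genes the injured leg lay below the contralateral leg in 4 of 4 aged NAM/PN mice and above it in 5 of 5 young vehicle mice. For Cilp2 the difference of the effects was -2.63 on the log2 scale (SE 0.81), and for Fmod, with legs differing by -1.03 to -0.06 in aged and 0.44 to 2.38 in young mice, it was -1.26 (SE 0.54, unadjusted p = 0.0262). The edgeR test of the difference, which did not pair the legs of a mouse, gave both an adjusted p of 1. Both genes were picked by their injured values, which these differences reuse. Causes of these patterns were not tested.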

How the results depend on the processing

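The count of 0 genes in injured muscle held for all alternatives but DESeq2 (3) and voom with quality weights (5). In contralateral muscle DESeq2 called 1, voom 9 and the fits without 1 library 0 to 22. The difference between legs had 0 calls in each. With the mouse as replicate block in voom and, for the legs, with fixed mouse effects as a block, paired fits called 0 genes. A fit with the title number as replicate block also called 0, though title numbers do not pair the legs of a mouse. Deviations of aged NAM/PN and young vehicle injured libraries with the same title number correlated from -0.068 to 0.523, above 0.1 in 3 of 4. Leaving out the 2 libraries that stood apart (chosen after seeing the data) also gave 0. At an unadjusted p under 0.05, injured muscle had 198 genes without young vehicle replicate 2, 575 without aged NAM/PN replicate 4 and 1101 by voom, compared with 321.

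Of 528 alternative list medians 494 moved by less than 1 SD of the score. Counts at an unadjusted p under 0.05 depended on the libraries fitted. With only the libraries compared, 443 of 11773 genes passed it, compared with 321 of 12610. On the higher side these included 4 interferon-stimulated, 3 macrophage and 3 T and NK cell genes. On the lower side they included 7 adipocyte, 6 tendon and 1 mature fast myofiber genes. Restricted to young mice of the aged mice's description style, medians were -1.58 for tendon, -1.68 for adipocyte, 0.27 for T and NK cell and 0.058 for cytokine genes. With style as a covariate, those of glucocorticoid and cytokine genes were -0.79 and -0.0034, and without 1 library the adipocyte median ran from -1.47 to -0.89.

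Of 739 alternative fold changes of named genes 696 had the same sign and call, and 4 were called where edgeR made no call (Cilp2 by DESeq2 and voom, Matn4 and Spon2 by voom). Signs turned as follows. In young mice of the aged mice's style Myf5 was -0.019, Myod1 -0.37, Mki67 0.35, Fn1 0.017 and Axin2 -0.086. With style as a covariate Myod1 was -0.34, Myh8 -0.15, Mki67 0.066, Adgre1 -0.0062 and Pdxk -0.050. Myod1 was -0.11 with the mouse as replicate block. Myog was 0.00025 by DESeq2, 0.12 by voom, 0.12 with the title number as replicate block, 0.015 with only the libraries compared and 0.15 without the 2 libraries that stood apart, where Myh8 was -0.010 and Csnk1a1 -0.048. Csnk1a1 was -0.017 by voom. Without 1 library the ranges were -0.12 to 0.32 for Myod1, -0.21 to 0.30 for Myog, -0.052 to 0.54 for Myh8, -0.35 to 0.0085 for Mki67, -0.51 to 0.0032 for Col1a1, -0.25 to 0.10 for Fn1, -0.38 to 0.051 for Pdgfra, -0.037 to 0.21 for Tgfb1, -0.026 to 0.15 for Adgre1, -0.22 to 0.039 for Nampt and -0.069 to 0.12 for Csnk1a1.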
